A study of Bos taurus with 6 samples.

Results

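Prostaglandin handling was examined in cultured endothelium through 6 genes: the carriers SLCO2A1 and SLCO2B1, the cyclooxygenases PTGS1 and PTGS2, prostacyclin synthase PTGIS and prostaglandin E synthase PTGES. The genes were chosen with earlier results of these same arrays known, in which the carriers stood among the largest decreases, and every probe set annotated to one of them was taken. This gave 10 of the 24016 probe sets measured, and the 6 genes were 6 of 9162 named genes. Because the difference between treated and untreated cultures had entered that choice, it is described for these genes and not tested. The RNA came from primary endothelial cells of bovine aorta, isolated with collagenase and grown in RPMI medium. Of the 6 arrays, 3 were from cultures given TGF-beta 1 at 5 ng/ml for 24 hours (TGFB1 1 to 3) and 3 from cultures without treatment (basal 1 to 3). The labels name no strain, age or number of animals, and whether treated and untreated plates came from the same culture is not stated. The p-values below therefore measure the spread between arrays, which may be partly technical, and only 3 arrays a group limit their precision.

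Prostaglandins are made from arachidonic acid, which phospholipases free from membranes and which the cyclooxygenases turn into the unstable intermediate prostaglandin H2. Terminal synthases then form the individual products. In endothelium the main product is prostacyclin, made by PTGIS, which relaxes vessels and restrains platelets. PTGS1 is the form present in resting cells and PTGS2 the form induced by cytokines, growth factors and shear stress. SLCO2A1, the prostaglandin transporter, takes prostaglandins up from outside the cell, which clears them from the surroundings and delivers them to the enzymes that inactivate them. SLCO2B1 is a relative that carries steroid sulfates and other organic anions and has also been described to carry prostaglandins.

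The values are log2 expression from the RMA method, so a difference of 1 is a doubling. RMA gives no detection call. The 25th percentile, or lower quartile, of the probe sets was 4.52 to 4.60 depending on the array, and values in that range were not shown to be above background. Levels of different probe sets are not set against each other, since probes differ in brightness.

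Both carriers were lower on every treated array than on every basal array, and 3 of the 4 synthesis enzymes (PTGS1, PTGIS and PTGES) had groups that overlapped. PTGS2 was high on a single treated array and near the lower end of the range on the rest. In the fit over all genes, 2 of the 6 genes passed the limma threshold (adjusted p under 0.05) as lower and none as higher, where 1.17% of the 9162 genes passed as lower and 0.557% as higher. Nothing is read from that count, since the same contrast led to the choice of the genes. Both calls, those of SLCO2A1 and SLCO2B1, ended with the replicate block and without any 1 of basal 1, basal 2, TGFB1 1 and TGFB1 2, settings that left between 0 and 3 genes called over the whole array. Without TGFB1 3 the call of SLCO2A1 held and that of SLCO2B1 ended, with 8 genes called in all. In the fit that allowed for the array sets described below, 1 of the 4 synthesis enzymes passed, where 9.58% of all genes passed in either direction. Without basal 3, 1 of the 4 passed, where 16.8% of all genes did. Nothing is read from these calls either. The groups did not overlap for 3 of the 6 genes, against 23.3% of all genes.

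**Figure D1:**
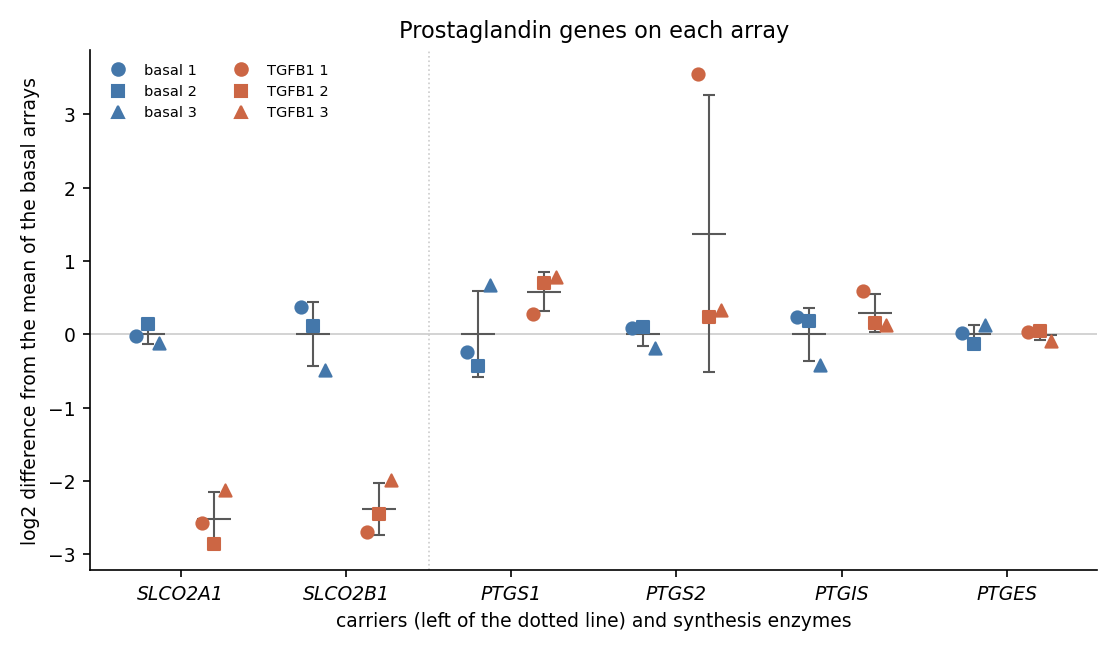
Log2 difference of each array from the mean of the basal arrays (y axis) for the 6 genes (x axis), with basal arrays in blue and treated arrays in orange, symbols by replicate number, and horizontal and vertical bars for the mean and SD of 3 arrays. Treated arrays lie 2.12 to 2.86 below the basal mean for SLCO2A1 and 1.99 to 2.69 below it for SLCO2B1, while PTGS2 stands at 3.55 on TGFB1 1 alone.

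Of the carriers, SLCO2A1 (Entrez gene 282468) stood at 8.65, 8.81 and 8.56 log2 on the basal arrays and at 6.10, 5.81 and 6.55 on the treated arrays. The groups lay far apart, with a gap of 2.0 between the lowest basal and the highest treated array, and TGFB1 3 was the treated array nearest to basal. The means were 8.67 ± 0.13 and 6.16 ± 0.38 (SD, n = 3 each), a difference of -2.52 or 5.72-fold. That was the sixth largest decrease of the 9162 genes. In RNA from whole cultures, fewer cells that express a gene and less RNA per cell cannot be told apart.

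SLCO2B1 (Entrez gene 317704) is represented by 2 probe sets. The annotation assigns the dimmer through a RefSeq transcript and the brighter, which stands for the gene here, through another sequence. The brighter gave 9.60, 9.34 and 8.74 log2 on the basal arrays and 6.53, 6.77 and 7.24 on the treated arrays. Again the groups did not overlap, and basal 3 and TGFB1 3 lay closest to each other, 1.5 apart. The means were 9.23 ± 0.44 and 6.85 ± 0.36 (SD, n = 3 each), a difference of -2.38 or 5.20-fold and the eighth largest decrease. The dimmer probe set read 7.69, 7.95 and 7.20 on the basal arrays and 6.14, 6.12 and 6.26 on the treated ones. It too kept the groups apart, by 0.94, but its difference was smaller, at -1.44 or 2.71-fold, and the treated arrays were nearly level with an SD of 0.08. The size of the SLCO2B1 decrease thus depended on the probe set, and the mean of both gave -1.91. Of the 10 probe sets, the brighter one of SLCO2B1 and that of SLCO2A1 passed the limma threshold over all probe sets as lower, and none passed as higher, where 0.354% of the 24016 passed as lower and 0.304% as higher. The groups did not overlap for 4 of the 10, against 19.2% of all probe sets.

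Across the 6 arrays the pattern of SLCO2A1 was most like that of SLCO2B1. Likeness was measured as the root mean square difference after each gene was centred on its own mean, and the value for this pair was 0.278 log2, the smallest among all named genes, beside an SD of SLCO2A1 over the arrays of 1.40. The next were PPP1R16B, a phosphatase subunit of endothelial cells, at 0.306 and FABP4, a fatty acid binding protein, at 0.337. The pattern nearest to SLCO2B1 was that of PPP1R16B at 0.0742, followed by AOC3, a vascular amine oxidase, at 0.135 and QPRT, an enzyme of NAD synthesis, at 0.222. PPP1R16B read 10.02, 9.68 and 9.21 log2 on the basal arrays and 7.01, 7.36 and 7.65 on the treated ones, the same order of arrays as SLCO2B1 in each group. Genes with a large decrease in common are near each other on this measure whatever else they do.

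Of the cyclooxygenases, PTGS1 (Entrez gene 282022) stood at 8.52, 8.32 and 9.42 log2 on the basal arrays and at 9.02, 9.45 and 9.53 on the treated arrays. Basal 3 lay with TGFB1 2 and TGFB1 3, and the groups overlapped by 0.40. The means were 8.75 ± 0.59 and 9.33 ± 0.27 (SD, n = 3 each), a difference of 0.58 that was within the spread of the basal arrays. On a dimmer probe set basal 3 was the highest of all 6 arrays, at 7.40 against 6.11 and 6.21 for the other basal arrays. The difference on it was 0.39. Both probe sets of PTGS1 are assigned through sequences other than a RefSeq transcript. The difference of the brighter probe set was 0.92 without basal 3, 0.37 without basal 2 and 0.34 when the array sets described below were allowed for. The 3 genes with the nearest pattern, TLR3 (an innate receptor of double-stranded RNA), KIFBP and FRA10AC1, differed from it by 0.0567, 0.0702 and 0.0721 and also had basal 3 among the treated values.

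PTGS2 (Entrez gene 282023) read 4.52, 4.52 and 4.24 log2 on the basal arrays and 7.98, 4.67 and 4.76 on the treated arrays. Only TGFB1 1 was clearly raised, 3.22 above the next highest array. TGFB1 2 and TGFB1 3 lay 0.14 or more above the highest basal value, so the groups did not touch, yet all 5 arrays other than TGFB1 1 sat near the lower quartile of the array. The difference of the means was 1.37 with a treated SD of 1.89, and 0.28 without TGFB1 1. Averaged over its probe sets, PTGS2 differed by 0.42. The annotation assigns 2 further probe sets to PTGS2, through sequences other than a RefSeq transcript. They read 3.84 to 4.07 and 3.67 to 3.98 over the 6 arrays, below the lower quartile, and TGFB1 1 did not stand out on either, at 3.91 and 3.84. None of the 3 passed the threshold.

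**Figure D2:**
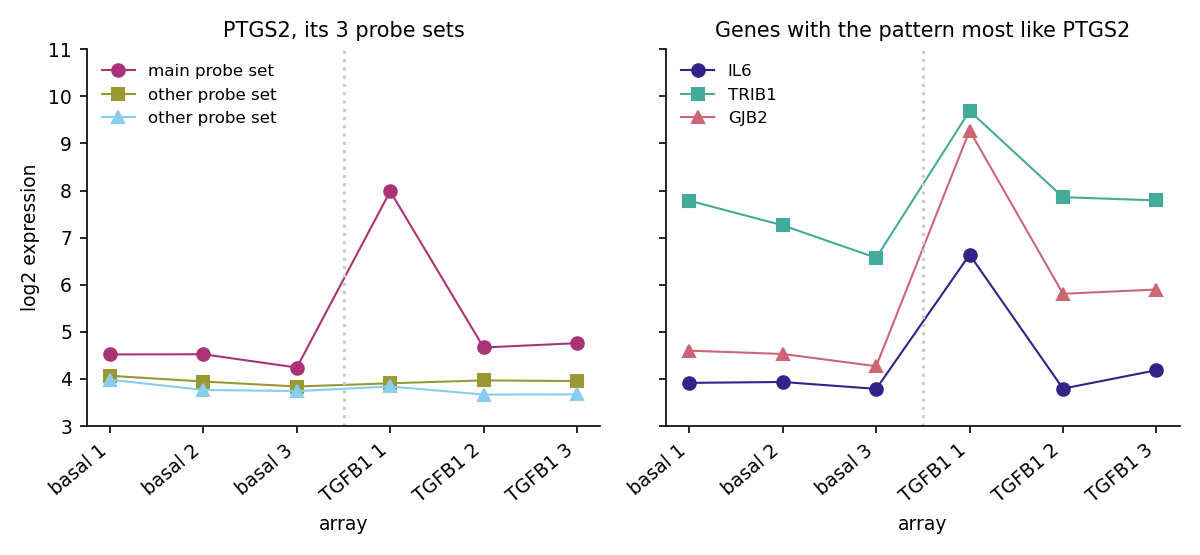
Log2 expression (y axis) on each of the 6 arrays (x axis), for the 3 probe sets of PTGS2 on the left and for the 3 genes with the most similar pattern on the right. The main PTGS2 probe set reaches 7.98 on TGFB1 1 and lies between 4.24 and 4.76 elsewhere, the other probe sets stay between 3.67 and 4.07, and IL6, TRIB1 and GJB2 are also highest on TGFB1 1.

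The gene with the pattern most like PTGS2 was IL6, an inflammatory cytokine, with a root mean square difference of 0.299 log2 beside an SD of PTGS2 of 1.42. IL6 read 3.92, 3.94 and 3.79 on the basal arrays and 6.64, 3.80 and 4.19 on the treated ones. TRIB1, a pseudokinase, followed at 0.546, with 9.69 on TGFB1 1 and 6.57 to 7.86 on the others. GJB2, a gap junction protein, came next at 0.578. It read 4.27 to 4.60 on the basal arrays, 9.27 on TGFB1 1, and 5.81 and 5.90 on TGFB1 2 and TGFB1 3. Unlike PTGS2, GJB2 was therefore also more than 1 log2 above basal on the other treated arrays. PTGS2 was the second most extreme of the 5 genes that stood more than 2 log2 higher on TGFB1 1 than on any other array, after GJB2. The other arrays had 0 or 1 such gene each.

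Of the terminal synthases, PTGIS (Entrez gene 282021) stood at 9.96, 9.90 and 9.30 log2 on the basal arrays and at 10.31, 9.87 and 9.85 on the treated arrays. Basal 3 was low and TGFB1 1 high, and the others differed by 0.10 at most. The means were 9.72 ± 0.36 and 10.01 ± 0.26 (SD, n = 3 each), a difference of 0.29 that was smaller than the basal SD. It was 0.08 without basal 3, 0.14 without TGFB1 1 and 0.47 when the array sets were allowed for. PTGIS and PTGS1 thus deviated in opposite ways on basal 3: PTGS1 was 1.00 higher there and PTGIS 0.63 lower than the mean of basal 1 and basal 2. Genes with the nearest pattern to PTGIS were NCKAP5L, GTF3C2 and EPS15L1, within 0.0310, 0.0410 and 0.0508 of it.

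PTGES (Entrez gene 282019), the inducible enzyme of prostaglandin E2, read 4.22, 4.07 and 4.33 log2 on the basal arrays and 4.24, 4.25 and 4.12 on the treated arrays. All of these lay under the lower quartile, so its transcript was not shown to be above background in either group, and a change in it may not be measurable here. The difference was -0.005 with group SDs of 0.13 and 0.07.

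Carriers and synthesis enzymes were then set side by side on each array, as the mean difference from the basal level over the genes of each kind. For the carriers this was 0.17, 0.13 and -0.30 on the basal arrays and -2.63, -2.66 and -2.05 on the treated arrays. For the 4 synthesis enzymes it was 0.03, -0.07 and 0.05, then 1.11, 0.28 and 0.29. The mean difference from basal was thus far lower for the carriers than for the enzymes on each treated array. That of the enzymes as a group was slightly above 0. The carriers minus the enzymes came to -3.01 between the groups, with SDs of 0.30 for basal and 0.70 for treated. PTGS2 on TGFB1 1 accounted for the largest part of the enzymes' spread: without PTGS2 the enzymes stood at 0.30, 0.30 and 0.28 on the treated arrays and the carriers minus the enzymes at -2.74. These are averages of genes that differ in level and direction, and the carriers' side was fixed by the choice of genes. PTGES and PTGS2 lay below the lower quartile on the basal arrays. A decrease as large as that of the carriers could therefore not have been seen in them.

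**Figure D3:**
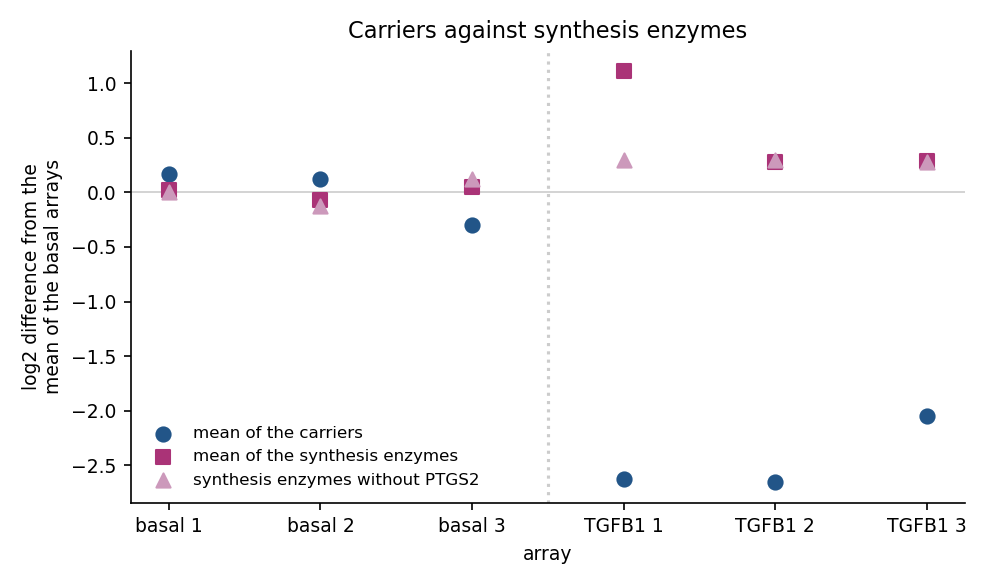
Mean log2 difference from the basal level (y axis) on each array (x axis) for the 2 carriers (circles), the 4 synthesis enzymes (squares) and the enzymes without PTGS2 (triangles). The carriers drop to between -2.66 and -2.05 on the treated arrays, while the enzymes lie between 0.28 and 1.11.

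The arrays did not separate by treatment alone. The first principal component of all probe sets held 63.4% of the variance. On it basal 1, basal 2 and TGFB1 1 lay on one side and basal 3, TGFB1 2 and TGFB1 3 on the other. TGFB1 1 lay nearer the middle, at -10.3, against -67.8 for basal 1 and -38.8 for basal 2. On the second component, with 24.7% of the variance, it stood apart at -48. Its values correlated at 0.9771 with TGFB1 2, 0.9753 with TGFB1 3, 0.9745 with basal 2 and 0.9632 with basal 1. The place of TGFB1 1 in the first set is thus uncertain. The labels name no batch, and the array sets were defined from the data and not by the study. They were drawn from the same values that the fits compare. Calls and p-values from fits that allowed for them, here and below, are therefore descriptions and not independent support. SLCO2A1 differed by -2.62 within the first set and by -2.38 within the second, so its decrease was about as large in each. SLCO2B1 differed by -2.93 and -1.74. For PTGS1 the values were 0.61 and 0.07, and for PTGS2 3.46 and 0.47. The PTGS2 difference was found mainly on TGFB1 1. For PTGS1, TGFB1 1 was the lowest treated array, at 9.02, while basal 1 and basal 2 were low, at 8.52 and 8.32. Without TGFB1 1 the PTGS1 difference was 0.74. PTGIS differed by 0.38 and 0.56, in the same direction in each set. PTGES differed by 0.09 and -0.14. Each set holds 1 array of one of the groups, so these are values without a test.

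**Figure D4:**
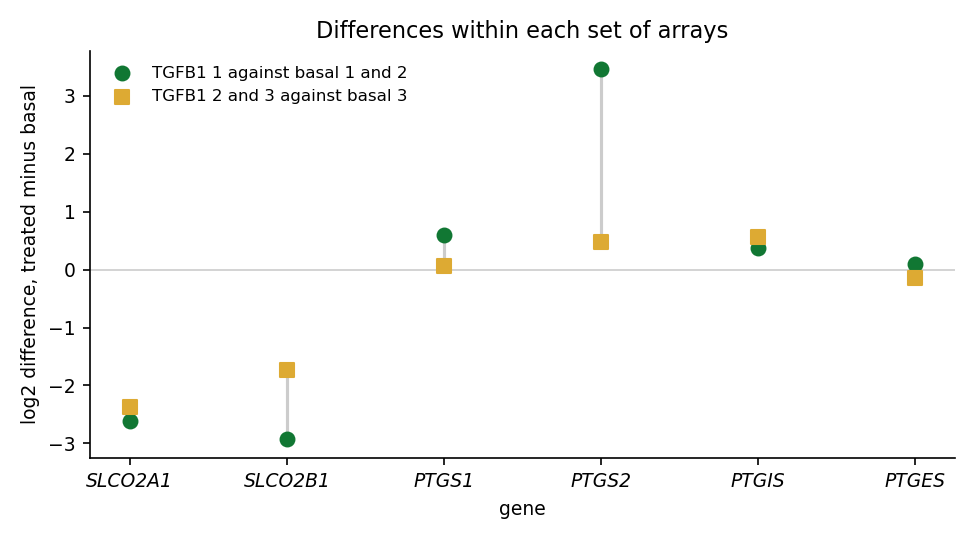
Log2 difference between treated and basal arrays (y axis) for each gene (x axis), within the set of basal 1, basal 2 and TGFB1 1 (circles) and within the set of basal 3, TGFB1 2 and TGFB1 3 (squares). The carriers are below 0 in both sets, and PTGS2 lies at 3.46 in the first and 0.47 in the second.

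The remaining genes of the pathway were taken from a list of 60 genes, of which 37 were measured. The genes were not picked for how they moved, but the list was written with earlier results of these data known. None passed the limma threshold, with 7 at an unadjusted p under 0.05 and all of these lower. That was 18.9% of the 37 genes, against 11.4% of all genes that were lower at this level. The treated arrays lay wholly below the basal arrays in 8 of the 37 genes (21.6%, against 15.1% of all genes) and wholly above in 2 (5.41%, against 8.19%). The median difference was -0.13 log2, beside -0.03 over all genes. When the fit allowed for the array sets, 4 of the 37 genes (10.8%) passed, all lower, where 5.58% of all genes did. Without basal 3, 7 of the 37 (18.9%) passed, also lower, where 11.1% of all genes did. With basal 3 left out, treatment is partly mixed with the array sets.

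Other transporters of organic anions were low on this array and differed little between the groups. Of 7 measured, none had an unadjusted p under 0.05, and their differences ran from -0.18 for SLCO1A2 to 0.09 for SLCO1B3. SLCO3A1, another carrier with reported prostaglandin transport, read 5.97, 5.73 and 5.50 log2 on the basal arrays and 5.84, 5.91 and 5.63 on the treated ones. Its groups overlapped, and the difference of 0.06 had a 95% interval of -0.32 to 0.44. SLCO4A1 stood at 0.01 (-0.56 to 0.59). The basal means of the 7 genes ran from 3.55 to 5.87 log2, with SLCO1B3 and SLCO4C1 under the lower quartile of the probe-set means (4.57) and SLC22A8 at 4.62, close to it. A decrease as large as that of SLCO2B1 would have taken all 7 below that quartile, so the values do not show whether they differ from the 2 carriers in this respect.

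Of the other terminal synthases, TBXAS1, which makes thromboxane A2, read 8.48, 8.03 and 8.07 log2 on the basal arrays and 7.28, 7.36 and 7.51 on the treated ones. Its groups did not overlap. The difference was -0.81 (95% interval -1.19 to -0.43, limma adjusted p = 0.0712), and all 3 of its probe sets had the same sign. It passed as the mean of its probe sets (limma adjusted p = 0.0489), in the fit that allowed for the array sets (0.0317) and without basal 3 (0.0286), while other alternatives took its adjusted p as high as 0.273. PTGDS, the lipocalin-type prostaglandin D synthase, read 11.56, 11.79 and 10.55, then 10.57, 10.46 and 10.28. Basal 3 lay with the treated arrays, and the difference of -0.86 had a limma adjusted p = 0.251. Without basal 3 it fell by 1.24 (limma adjusted p = 0.00934, and 0.587 at most in the other fits). AKR1B1, an aldo-keto reductase that can form prostaglandin F2 alpha, stood at 0.31 (-0.05 to 0.66) with treated arrays above basal, and PTGES3, a prostaglandin E synthase that also serves as an HSP90 co-chaperone, at 0.18 (-0.23 to 0.60).

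Among enzymes that break prostaglandins down, HPGD, which starts their inactivation, read 4.29 to 4.65 log2 on the basal arrays and 4.30 to 4.39 on the treated ones, around and below the lower quartile. PTGR1, a reductase of the next step, stood at -0.87 (95% interval -1.58 to -0.15, limma adjusted p = 0.208). It was lowest on TGFB1 1, at 6.35, against 7.38 and 7.33 on the other treated arrays and 7.76 to 8.05 on the basal ones, and it passed at -1.07 once the fit allowed for the array sets (limma adjusted p = 0.0187, and 0.447 at most in the other fits). The difference was -0.45 as the mean of its probe sets and -0.53 without TGFB1 1. PTGR3, a related reductase, stood at -0.57 (-0.93 to -0.21) with groups that did not overlap. PTGR2 stood at 0.74, with basal arrays from 5.08 to 7.48.

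**Figure D5:**
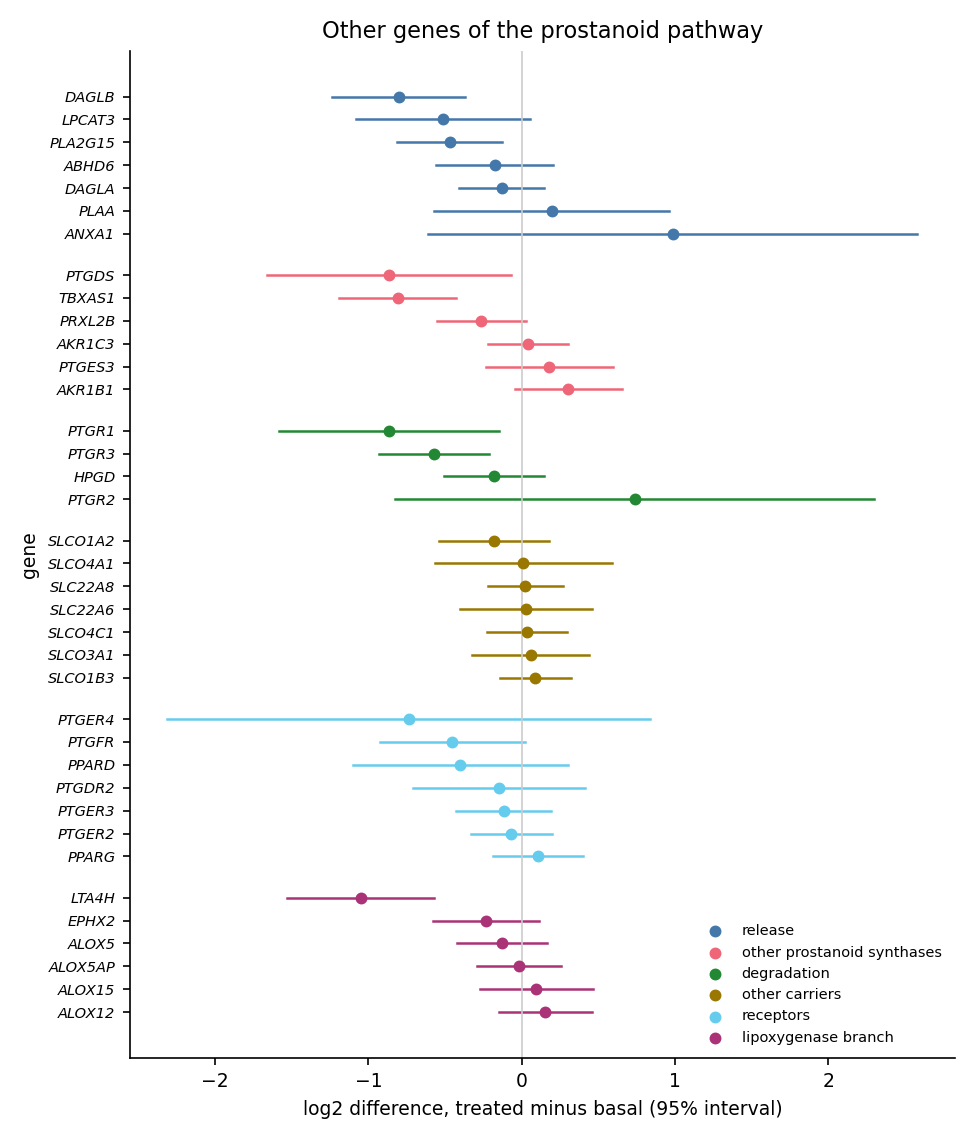
Log2 difference between treated and basal arrays (x axis) with its 95% interval from the limma fit for the 37 other pathway genes (y axis), coloured by role. LTA4H lies lowest at -1.05, ANXA1 highest at 0.98 with a wide interval, and the 7 other carriers lie between -0.18 and 0.09.

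Upstream, where arachidonic acid and its precursors are released, 7 of 16 listed genes were measured. Of the 7, 5 had a difference below 0, beside 5091 of all 9162 genes, and none passed. DAGLB, a diacylglycerol lipase, had the smallest p. It read 8.51, 8.08 and 8.03 log2 on the basal arrays and 7.50, 7.17 and 7.53 on the treated ones. The groups were apart, and the difference was -0.80 (95% interval -1.24 to -0.37, limma adjusted p = 0.0917, from 0.0347 to 0.302 in the other fits). It passed in the fit that allowed for the array sets (limma adjusted p = 0.0441) and without basal 3 (0.0347). ANXA1, an annexin that restrains phospholipase A2, stood at 0.98, but its basal arrays ranged from 9.99 to 12.35 and the 95% interval from -0.61 to 2.58.

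The receptors gave small or uncertain differences. Of 7 measured, 6 had a difference below 0, beside 5091 of all 9162 genes, and none had an unadjusted p under 0.05. PTGER4, a prostaglandin E2 receptor, read 6.0, 5.71 and 4.24 log2 on the basal arrays and 5.73, 4.02 and 3.99 on the treated arrays. It followed the array sets and not the treatment, with TGFB1 1 beside basal 1 and basal 2. PTGFR, the prostaglandin F receptor, stood at -0.45 (-0.93 to 0.02), and 1 of its 3 probe sets had that sign, the one given here. PPARD, a nuclear receptor that prostacyclin has been proposed to activate, stood at -0.40 (-1.10 to 0.30). The prostacyclin receptor was on the list but was not among the genes measured.

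In the neighbouring lipoxygenase branch, LTA4H, which makes leukotriene B4, had the largest difference of the 37 genes. It read 10.30, 10.27 and 10.51 log2 on the basal arrays and 8.91, 9.53 and 9.50 on the treated arrays. The groups were apart, with TGFB1 1 lowest. The difference was -1.05 (95% interval -1.53 to -0.57) with a limma adjusted p = 0.0657, and it passed at -1.19 in the fit that allowed for the array sets (limma adjusted p = 0.00614) and at -0.97 without basal 3 (0.0378), with 0.236 at most in the other fits. The lipoxygenases ALOX5, ALOX12 and ALOX15 stood between -0.13 and 0.16.

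Endothelial markers other than VWF and KDR were high in both groups. PECAM1 stood at 12.08 to 12.43 log2 on the basal arrays and 11.73 to 11.84 on the treated ones, and CDH5 at 11.37 or more on every array. The mean level of the 9 endothelial markers measured was 9.49 to 9.91 on the basal and 9.50 to 9.73 on the treated arrays. None of the 9 passed the limma threshold. In that fit 4 had an unadjusted p under 0.05, beside 1598 of all 9162 genes. EMCN was higher at 0.82, and PECAM1, CDH5 and KDR were lower at -0.52, -0.57 and -0.67. The groups did not overlap for 6 of the 9, 4 of them lower and 2 higher under treatment, against 23.3% of all genes. For VWF and CDH5 the groups were apart by only 0.00148 and 0.00645. In the fit that allowed for the array sets, where 9.58% of all genes passed, ROBO4 and EMCN rose by 1.04 and 0.92 (limma adjusted p = 0.0085 and 0.0242) and PECAM1 fell by 0.45 (0.0439). Without basal 3, where 16.8% of all genes passed, PECAM1, CDH5 and TIE1 fell by 0.62, 0.74 and 1.13 (limma adjusted p = 0.0218, 0.0322 and 0.0272). VWF lay at 5.99 to 6.33, near the array median. KDR lay below the median, at 4.66 to 5.50 on the basal arrays, and below the lower quartile on the treated ones, at 4.39 to 4.51. Of the platelet markers, which bear on PTGS1 and TBXAS1, PF4 and ITGA2B were measured and read at most 3.68 and 5.03. Of 7 leukocyte markers none passed, with 0 at an unadjusted p under 0.05. PTPRC lay at 3.77 to 3.93, and the mean level of the list was 4.72 to 4.89 on the basal and 4.79 to 4.88 on the treated arrays. CD14 read 7.46 and 7.31 on TGFB1 2 and TGFB1 3 and 6.54 to 6.80 elsewhere, and its part in any result was not tested. Of 7 smooth muscle markers TAGLN alone passed, with a rise of 2.19 (limma adjusted p = 0.0188). Its call ended with the replicate block and without any 1 of basal 1, basal 2, TGFB1 1 and TGFB1 2 (limma adjusted p up to 0.151). MYH11 stayed between 4.61 and 4.87. Of 8 fibroblast markers none passed, with COL1A2 at 0.93 the 1 with an unadjusted p under 0.05. Among 5 mesothelial or epithelial markers none passed and none had an unadjusted p under 0.05.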

How the data were processed

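Expression was measured on 6 Affymetrix bovine arrays. The deposited values are log2 expression that the authors made by RMA, with the affy package (the submitters' processing notes name both, without versions). RMA background-corrects, quantile-normalizes and summarises the probes of each probe set, which compresses changes near background. Of 24128 probe sets, 112 controls were left out. The array annotation gave 1 gene for 13292 of the others, several for 86 and none for 10638, and those with several were tested but not named. Where a gene had several probe sets, the brightest on average stood for it. Groups were compared over all genes and over all probe sets with limma 3.58.1 under R version 4.3.3 (functions lmFit and eBayes, group as the only term, two-sided, Benjamini-Hochberg, threshold 0.05), without a filter on dim probe sets. The script was checked on simulated data with independent noise and no array sets. That check does not cover differences that many genes of an array share, as found here. The genes, lists and alternatives were chosen with earlier results of these data known. The naming rule covered every probe set of the 6 genes, the pathway list, the 3 genes nearest in pattern to each, and of each marker list the 3 with the smallest p. Other genes were named after their values were seen. Alternatives were other normalizations, blocks, filters, eBayes settings, ways to represent a gene and leaving out each array. Names came from the annotation and the RefSeq gene table of ARS-UCD2.0, and no coordinates are given because the annotation names no build. Sequences were not used here. Plots used matplotlib 3.10.9 under Python 3.11.15.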

Additional observations from a re-analysis of the deposited data

How the results depend on the processing

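The differences of the 6 genes kept their direction under every alternative run except for PTGES, which lay between -0.07 and 0.06. That of SLCO2B1 moved by more than the spread between arrays, to -1.91, when a gene was the mean of its probe sets. The number of genes called was 158, but 0 with the replicate block (limma, 2039 at an unadjusted p under 0.05), 878 when the fit allowed for the array sets (a 2-level block) and 99 with limma-trend. Leaving out single arrays gave 0 to 1538, with 0 without basal 2 (1010 at an unadjusted p under 0.05) or TGFB1 2 (1046), 1 without basal 1, 3 without TGFB1 1, 8 without TGFB1 3 and 1538 without basal 3. Among probe sets 158 were called (73 higher, 85 lower), against 100 after a further quantile normalization (57 higher, 43 lower), 0 with the replicate block (4450 at an unadjusted p under 0.05), 1348 with that array set block, 87 with limma-trend and 1 to 2012 without single arrays, the highest without basal 3. The alternatives for probe sets were added after seeing the data. Of the other pathway genes 0 were called, but 4 with the array set block, 1 with a gene as the mean of its probe sets, and 0 to 7 without single arrays, the 7 without basal 3. The cause of these shifts was not tested. Arrays with the same number were not taken as pairs. Their deviations from the group means correlated at 0.67, -0.51 and 0.70 for numbers 1, 2 and 3 across genes. With 3 arrays a group these values cannot decide whether the arrays were paired, and the labels do not say. The filter at the 25th percentile removed PTGES and that at the median also PTGS2, so these gave no value for them.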

Other observations

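On TGFB1 1, the array with the high PTGS2 value, 42 genes stood more than 1 log2 above all other arrays and 22 more than 1 below. The other arrays had 0 to 13 above and, apart from basal 1 with 141 below, 0 to 14 below. Beside GJB2, PTGS2 and IL6, the genes more than 2 log2 higher on TGFB1 1 were EPS8, an actin-capping protein, at 8.50 against 4.19 to 6.29 on the other arrays, and SLC18A2, a vesicular monoamine carrier, at 7.97 against 4.58 to 5.78. These genes were singled out after their values were seen. SLCO2A1 and SLCO2B1 were within the range of the other treated arrays there or just below it, at 6.10 and 6.53.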
